A study of Mus musculus with 11 samples.

Results

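The comparison described here is that of open neuroepithelium from mouse embryos at embryonic day 9.5 (E9.5) with open neuroepithelium at embryonic day 8.5 (E8.5), across genes. It rests on 6 of the 11 arrays of the series, 3 at each stage, and on 13341 of the 18193 genes that a probe set with a single gene symbol reports. For each gene the probe set of highest mean over the 11 arrays was taken, and genes with a mean under the 40th percentile of all non-control probe sets (4.30 on the log2 scale) were left out. A gene whose mean passed only through the stage at which it is high had to differ between the stages, so counts over the genes that passed are no more than a description for such genes.

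The series profiled the neuroepithelium on both sides of the junction between the closed neural tube and the still open neural folds, on mouse expression arrays. All embryos were C57BL/6, with no transgene, treatment or mutation named, and tissue of a litter could be pooled. After timed matings the embryos were incubated in 2.5% pancreatin and 0.5% trypsin, for 5 minutes at E8.5 and for 8 minutes at E9.5. The neuroepithelium was then peeled off, and the notochord that adheres to it stayed with the sample. Open neuroepithelium is the tissue caudal to the junction, cut so as to carry little primitive streak at E8.5 or tail bud at E9.5. Closed neural tube, with 2 arrays at E8.5 and 3 at E9.5, begins about 1 somite rostral to the junction. Because the cut follows the junction and not a fixed level of the body axis, developmental stage, axial level and length of digestion change together and cannot be told apart. The replicates are labelled as biological, and p-values measure the spread between these samples.

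The open caudal neuroepithelium borders the posterior neuropore, the last part of the neural tube to close. It is fed by bipotent progenitors that make spinal cord and paraxial mesoderm as the body axis elongates. Its cells record their axial level in the Hox genes, homeobox transcription factors of which low-numbered paralogues mark the head and neck and high-numbered paralogues the lumbar, sacral and tail levels. Fibroblast growth factor (FGF) and Wnt signals hold the caudal cells as progenitors, and retinoic acid from the somites promotes their differentiation.

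The integrity of the RNA differed between the arrays. The control probe sets of Gapdh and Actb give a signal at the 3' and at the 5' end of the transcript, and the mean difference between the ends was 1.32, 1.15 and 1.30 log2 units in the E8.5 arrays. In the E9.5 arrays it was 2.20, 2.48 and 1.14, so that replicates 1 and 2 had lost more 5' signal than replicate 3, which lay at the level of E8.5. Replicates 1 and 2 were also closer to each other, with a median absolute difference per gene of 0.130, than either was to replicate 3 (0.222 and 0.266). Each result below was therefore computed again with replicate 3 as the only E9.5 array of open tissue, in a fit that takes its spread from the other 3 groups.

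Of the 13341 genes, 670 differed between the stages at an adjusted p under 0.05 in the limma fit, or 5.02%, and 481 of them were higher at E9.5 (3.61%) and 189 lower (1.42%). The arrays of the 2 stages did not overlap for any of the 670. Over all genes tested, non-overlap occurred in 12.1% in the direction of E9.5 and in 9.75% in the direction of E8.5. The difference was at least 1 log2 unit, a doubling or halving of signal, for 154 of the higher and 65 of the lower genes, and at least 2 units for 18 and 5. Quantile normalisation gave 393 higher and 248 lower genes. With replicate 3 as the only E9.5 array 134 genes were higher (1%) and 48 lower (0.36%). Both fits share the E8.5 arrays and replicate 3 itself and are not independent, so their values are given side by side. The median difference of the 481 higher genes was 0.81 with all replicates and 0.71 in replicate 3, and that of the 189 lower genes was -0.83 and -0.74. The difference in replicate 3 was under 50% of that with all replicates for 17 of the higher and 5 of the lower genes. In RNA from whole tissue, a smaller share of cells with a transcript and less of it per cell cannot be told apart.

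Of the 5 largest rises 4 were Hox genes of the posterior paralogue groups, Hoxc10, Hoxd10, Hoxa10 and Hoxa11, and the other was the globin Hbb-y. Of the 7 Hox genes of groups 10 to 13 that were tested, 6 rose (all genes: 3.61% higher), with a median difference of 3.85 log2 units over the 7 (all genes tested: -0.02). The E8.5 mean of 5 of the 6, all but Hoxc10, lay under the filter value, so that these 5 passed the filter through groups in which they were higher, and the count and the median are a description. Without the filter, over the 10 genes measured, it was 1.84. These genes specify lumbar, sacral and tail identity. Hoxc10 gave 5.28, 5.39 and 5.39 at E8.5 against 11.995, 11.73 and 12.13 at E9.5. The difference was 6.60 ± 0.37 (SE; adjusted p = 4.05e-06). Hoxd10 gave 3.20, 3.11 and 3.35 in the E8.5 arrays and 8.93, 9.54 and 9.27 in the E9.5 arrays, a difference of 6.03 ± 0.51 (SE; adjusted p = 5.24e-05). At E8.5 its signal lay under the filter value in every array.

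Hoxa10 gave 4.57, 4.21 and 4.11 at E8.5 against 9.20, 9.51 and 9.73 at E9.5, a difference of 5.18 ± 0.32 (SE; adjusted p = 7.28e-06). Hoxa11 gave 4.29, 4.15 and 4.11 in the E8.5 arrays and 7.53, 8.03 and 8.54 in the E9.5 arrays, a difference of 3.85 ± 0.22 (SE; adjusted p = 4.51e-06). For these 4 genes the spread within each stage was at most about 1 unit and the stages lay several units apart. Hoxd11, with a difference of 2.06 ± 0.29 (SE; adjusted p = 0.00168), was lower in E9.5 replicates 1 and 2 (5.38 and 5.73) than in replicate 3 (6.85). Hoxd13, the last gene of its cluster, gave 4.39, 4.02 and 4.36 at E8.5 against 5.13, 7.25 and 5.29 at E9.5. Its rise of 1.63 ± 0.42 (SE; adjusted p = 0.0491) was carried largely by replicate 2, and in replicate 3 alone it was 1.03 (adjusted p = 0.0191). Hoxc13 was low at both stages, with a difference of 0.13 (adjusted p = 0.60). Hoxd12, Hoxa13 and Hoxb13 lay under the filter, the highest value in any open array being 4.30, and Hoxc11 and Hoxc12 were not analysed here. With replicate 3 alone the median of the 7 was 4.36, and 6 passed.

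**Figure D1:**
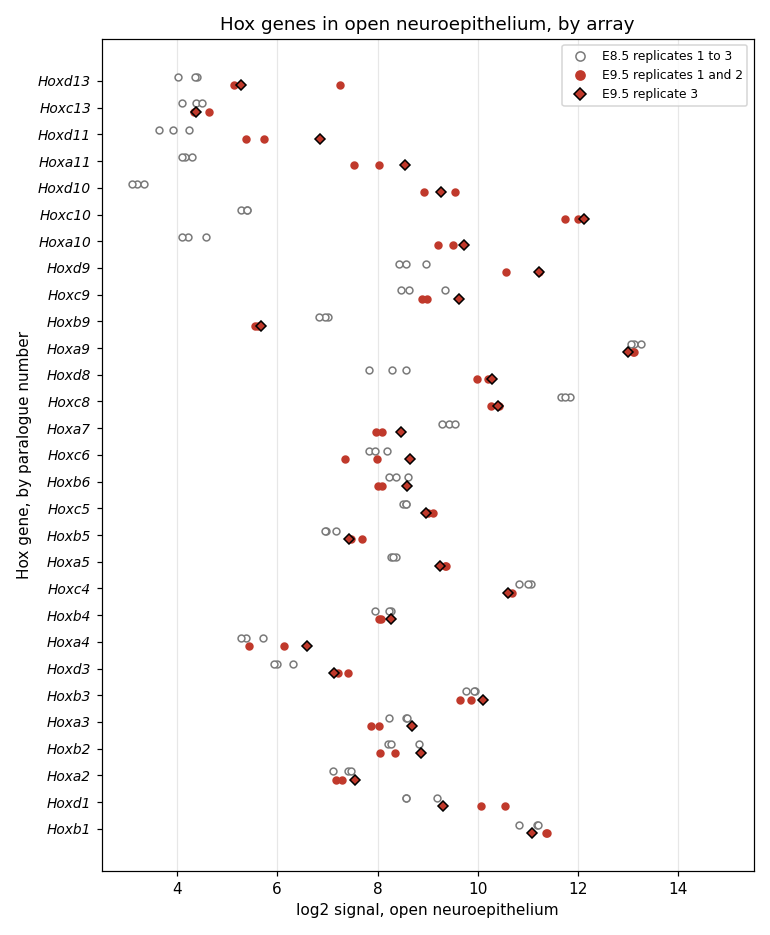
Log2 signal of the 29 Hox genes tested (horizontal axis), ordered by paralogue number (vertical axis), in the 3 E8.5 arrays (open circles) and the 3 E9.5 arrays (filled; diamond, replicate 3) of open neuroepithelium. The E9.5 points of Hoxc10, Hoxd10, Hoxa10 and Hoxa11 lie to the right of their E8.5 points by 3.85 to 6.60 units, whereas those of Hoxc8, Hoxb9 and Hoxa7 lie to the left.

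Of the posterior Hox genes that rose together, the promoters of Hoxa10, Hoxa11 and Hoxd10 are shown, and Hoxc10 had no window in the RefSeq table. The windows are the 250 bases before the annotated start, in GRCm38.p6 from RefSeq, with each CpG in capitals. CpG-dense promoters are a textbook feature of developmental regulators silenced by Polycomb proteins. Hoxa10 is shown for the second of its 2 annotated starts (chr6:52234940-52235189, minus strand), Hoxa11 at chr6:52245811-52246060 (minus strand) and Hoxd10 at chr2:74691641-74691890 (plus strand).
Hoxa10: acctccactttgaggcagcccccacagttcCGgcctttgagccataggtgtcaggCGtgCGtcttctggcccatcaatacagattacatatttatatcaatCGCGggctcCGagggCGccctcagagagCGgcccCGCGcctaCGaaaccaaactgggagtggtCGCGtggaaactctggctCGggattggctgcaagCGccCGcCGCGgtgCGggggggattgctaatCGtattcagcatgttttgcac
Hoxa11: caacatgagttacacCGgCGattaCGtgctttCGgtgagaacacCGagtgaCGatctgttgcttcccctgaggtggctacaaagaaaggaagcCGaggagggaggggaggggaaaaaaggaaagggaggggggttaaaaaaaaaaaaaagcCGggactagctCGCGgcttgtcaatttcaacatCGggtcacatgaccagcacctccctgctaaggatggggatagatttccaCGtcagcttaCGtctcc
Hoxd10: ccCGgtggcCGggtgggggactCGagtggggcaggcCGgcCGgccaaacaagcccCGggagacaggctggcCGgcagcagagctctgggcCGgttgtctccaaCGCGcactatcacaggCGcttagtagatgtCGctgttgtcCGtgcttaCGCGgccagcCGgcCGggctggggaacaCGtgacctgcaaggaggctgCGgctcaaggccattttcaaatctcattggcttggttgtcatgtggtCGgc
These windows hold 20, 13 and 20 CpG, and the other annotated start of Hoxa10 holds 7. The median over 32851 windows of the same length is 6. Of these windows 17.95% hold 20 or more, 31.54% hold 13 or more and 46.3% hold 7 or more. These are counts of letters and say nothing of the state of the DNA in this tissue.

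The Hox genes of groups 5 to 9 moved in both directions. Of the 6 tested in groups 8 and 9, 2 rose and 2 fell (all genes: 3.61% higher, 1.42% lower). Hoxd8 gave 7.83, 8.29 and 8.57 in the E8.5 arrays and 10.20, 9.98 and 10.29 in the E9.5 arrays, and Hoxd9 rose by 2.35 (adjusted p = 0.00117). Hoxc8 fell, with 11.66, 11.83 and 11.74 at E8.5 against 10.26, 10.42 and 10.40 at E9.5, a difference of -1.38 ± 0.15 (SE; adjusted p = 0.000318). Hoxb9 gave 7.004, 6.96 and 6.83 in the E8.5 arrays and 5.56, 5.61 and 5.67 in the E9.5 arrays, a difference of -1.31 ± 0.13 (SE; adjusted p = 0.000163). No E8.5 array of Hoxc8 or Hoxb9 reached down to the E9.5 arrays. Hoxa9 stood at 13.12, 13.05 and 13.25 at E8.5 against 13.09, 13.12 and 13.0002 at E9.5, a difference of -0.07 (adjusted p = 0.80), and Hoxc9 at 0.35 (adjusted p = 0.53). In groups 6 and 7 only Hoxa7 passed, with a difference of -1.24 ± 0.14 (SE; adjusted p = 0.000405), among 3 tested genes. In groups 4 and 5 the 3 genes of group 5 rose, Hoxa5 (1.01), Hoxb5 (0.50) and Hoxc5 (0.49), while none of the 3 tested genes of group 4 passed. In groups 1 to 3, 1 of 7 rose, Hoxd3 at 1.16 (adjusted p = 0.00511), and Hoxd1 had 1.19 (adjusted p = 0.0505). By cluster, the tested Hoxd genes other than Hoxd1 all passed as higher, and every Hoxb gene but Hoxb5 and Hoxb9 missed the threshold. With replicate 3 as the only E9.5 array, Hoxd8, Hoxd9, Hoxc8, Hoxb9 and Hoxa7 passed again, at 2.06, 2.57, -1.34, -1.26 and -0.95. Hoxa5 passed as well (0.95), whereas Hoxb5, Hoxc5 and Hoxd3 did not.

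The largest fall was that of Nr6a1, the orphan nuclear receptor GCNF, which represses Pou5f1 and is known for its role in the length of the trunk. It gave 12.31, 12.18 and 12.25 in the E8.5 arrays and 8.67, 8.42 and 9.12 in the E9.5 arrays. The stages were separated by more than 3 units in every pair of arrays, and the difference was -3.51 ± 0.19 (SE; adjusted p = 4.05e-06), or -3.12 in replicate 3. The other probe sets of the gene above the filter differed by -3.25, -1.48 and -0.71. Of the 11 tested genes in the list on the timing of the trunk-to-tail transition, Nr6a1 and Pou5f1, the pluripotency factor, fell, and Wnt5a rose. Over all genes 3.61% were higher and 1.42% lower. Pou5f1 gave 5.34, 6.41 and 5.53 at E8.5 against 4.67, 4.81 and 4.23 at E9.5, a difference of -1.20 (adjusted p = 0.0355). Its call was lost with replicate 3 alone. Wnt5a, a ligand of noncanonical Wnt signalling needed for axis elongation, gave 10.14, 10.01 and 10.44 in the E8.5 arrays and 11.38, 11.33 and 11.35 in the E9.5 arrays. Its difference was 1.16 ± 0.14 (SE; adjusted p = 0.000548), with 1.15 in replicate 3. Gdf11, the ligand that times the transition, stayed close to the filter value at both stages, with a difference of -0.19 (adjusted p = 0.35). Lin28a, the RNA-binding protein of early embryonic cells, had a difference of 0.07 (adjusted p = 0.84). Of the 18 tested genes of the early embryonic and let-7 list, 1 rose and 1 fell. The fall was that of Prtg, a cell-surface receptor of early neuroectoderm, with 12.71, 12.498 and 12.76 at E8.5 against 11.20, 11.02 and 11.06 at E9.5, a difference of -1.56 ± 0.12 (SE; adjusted p = 3.27e-05). Its other 2 probe sets differed by -1.73 and -1.90. The rise was Mycn at 0.32 (adjusted p = 0.0286), and 2 further probe sets of Mycn had differences of -0.08 and -0.13. Mycn lost the call with replicate 3 alone.

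Among 23 tested caudal progenitor genes, 1 rose and 4 fell, with a median of -0.18 (all genes: 3.61% higher, 1.42% lower; median -0.02). Cdx1, the caudal homeobox gene that feeds into Hox expression, gave 8.75, 9.63 and 8.73 in the E8.5 arrays and 5.89, 5.40 and 6.98 in the E9.5 arrays, a difference of -2.95 ± 0.44 (SE; adjusted p = 0.00241). Replicate 3 had lost the least of the 3, and alone it gave -2.06 (adjusted p = 0.12). Its paralogue Cdx2 gave 11.13, 11.55 and 11.25 at E8.5 against 10.81, 10.90 and 11.499 at E9.5, with overlapping stages (-0.24 (adjusted p = 0.62)), and Cdx4 had 0.06 (adjusted p = 0.87). Wnt8a, a caudal Wnt ligand, gave 5.69, 5.92 and 5.75 in the E8.5 arrays and 4.41, 4.01 and 4.54 in the E9.5 arrays, a difference of -1.47 (adjusted p = 0.000143). Fst, the activin antagonist follistatin, gave 6.51, 6.31 and 6.56 at E8.5 against 5.07, 4.77 and 4.57 at E9.5, a difference of -1.66 (adjusted p = 0.000278). Both were past the threshold in replicate 3 alone as well (-1.25 and -1.89). Grsf1, an RNA-binding protein, fell, with -0.55 (adjusted p = 0.0321), and lost the call with replicate 3 alone. Fgf18 rose, with 7.02, 7.999 and 7.36 in the E8.5 arrays and 9.13, 8.43 and 9.59 in the E9.5 arrays, 2.13 in replicate 3. T (Brachyury), a defining gene of the population, was not analysed here. Nkx1-2, another, stood at 12.47, 12.40 and 12.58 at E8.5 against 12.47, 12.45 and 12.43 at E9.5, a difference of -0.03 (adjusted p = 0.91). Sox2 (-0.18 (adjusted p = 0.34)), Fgf8 (-0.23 (adjusted p = 0.58)), Wnt3a (-0.40 (adjusted p = 0.44)) and Cyp26a1 (0.67 (adjusted p = 0.16)) missed the threshold as well.

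**Figure D2:**
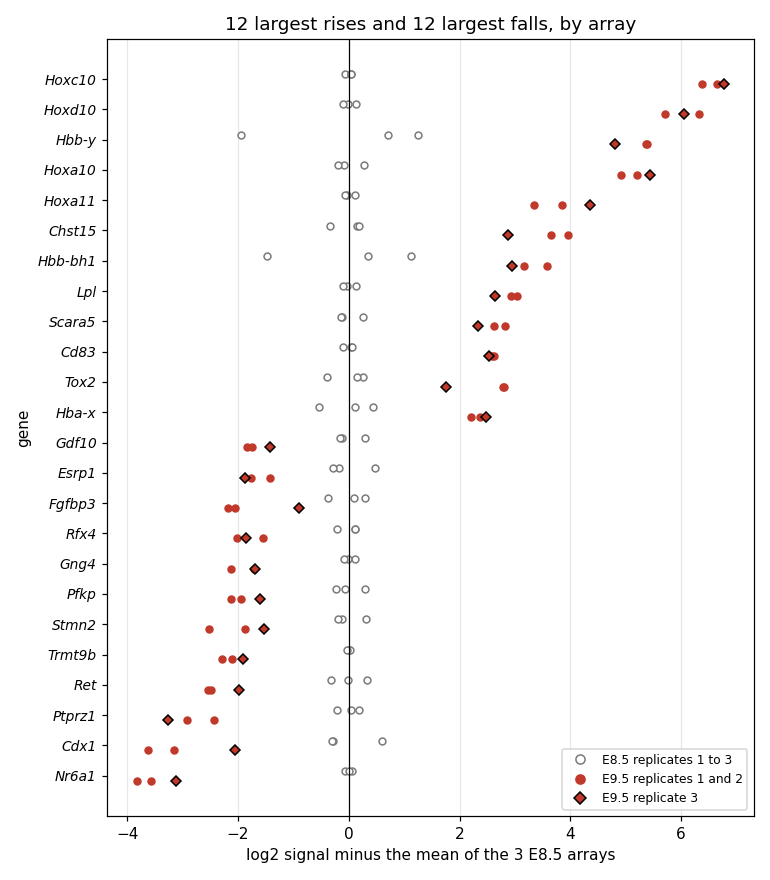
Log2 signal minus the mean of the 3 E8.5 arrays (horizontal axis) for the 12 genes with the largest rises and the 12 with the largest falls (vertical axis); open circles are E8.5 arrays, filled points E9.5 arrays and diamonds E9.5 replicate 3. The E8.5 points of Hbb-y spread over 3.19 units and those of Nr6a1 over 0.13 units. Every E9.5 point lies on its gene's side of all E8.5 points, which was a condition of the choice.

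Beside the Hox genes and the globins, the 12 largest rises held 5 genes of other kinds. Chst15, a sulfotransferase that acts on chondroitin sulfate, gave 6.64, 6.15 and 6.67 in the E8.5 arrays and 10.14, 10.44 and 9.37 in the E9.5 arrays, a difference of 3.49 ± 0.32 (SE; adjusted p = 9.67e-05). Lpl, lipoprotein lipase, gave 8.62, 8.45 and 8.39 at E8.5 against 11.41, 11.53 and 11.13 at E9.5, a difference of 2.87 ± 0.21 (SE; adjusted p = 2.25e-05). A second probe set of Lpl differed by 2.73. Cd83, an immunoglobulin-family membrane protein, gave 4.82, 4.95 and 4.98 in the E8.5 arrays and 7.5001, 7.53 and 7.44 in the E9.5 arrays, the tightest pair of groups among the 5 (2.57 ± 0.14 (SE; adjusted p = 4.05e-06)). Scara5, a scavenger receptor that binds ferritin, rose by 2.59 ± 0.16 (SE; adjusted p = 7.41e-06), and Tox2, an HMG-box factor, by 2.44 ± 0.38 (SE; adjusted p = 0.00287). For each of these a further probe set did not follow, at -0.16 and -0.15. The differences in replicate 3 were 2.88 for Chst15, 2.64 for Lpl, 2.52 for Cd83, 2.33 for Scara5 and 1.75 (adjusted p = 0.15) for Tox2.

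The large falls included receptors and metabolic genes. Ptprz1, a receptor-type tyrosine phosphatase of neural progenitors, gave 8.51, 8.36 and 8.12 at E8.5 against 5.42, 5.90 and 5.07 at E9.5, a difference of -2.87 ± 0.20 (SE; adjusted p = 1.98e-05). Ret, the receptor for GDNF-family ligands, gave 8.06, 7.73 and 7.41 in the E8.5 arrays and 5.24, 5.19 and 5.75 in the E9.5 arrays, a difference of -2.34 ± 0.20 (SE; adjusted p = 5e-05). Gdf10, a BMP-family ligand, gave 9.19, 9.60 and 9.15 at E8.5 against 7.47, 7.56 and 7.88 at E9.5 and had -1.68 (adjusted p = 0.000608). The arrays of the stages lay at least 1 unit apart for all 3 genes. Trmt9b, a tRNA methyltransferase homologue, had -2.11 (adjusted p = 3.27e-05), Pfkp, the platelet isoform of phosphofructokinase, -1.90 (adjusted p = 0.00043), and Gng4, a G-protein gamma subunit of neural tissue, -1.85 (adjusted p = 0.00147). Esrp1, an epithelial splicing regulator, had -1.69 (adjusted p = 0.000251) and Fgfbp3, an FGF-binding protein, -1.71 (adjusted p = 0.00707). For Fgfbp3 the difference in replicate 3 was -0.89, and both Fgfbp3 and Gng4 lost the call with replicate 3 alone. A further probe set above the filter differed far less for Ret (-0.49), Gng4 (-0.20) and Pfkp (-0.12), while that of Ptprz1 differed by -2.31. The remaining falls of the 12, Stmn2 and Rfx4, are given with the neural genes.

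Of 24 genes of FGF signalling, 1 rose and 3 fell (median -0.01). Over all genes 3.61% were higher and 1.42% lower, and the counts of the lists that follow stand beside the same shares. Fgf18 was the riser, and Fgf15, a ligand of the neural tube, gave 8.08, 8.12 and 7.88 in the E8.5 arrays and 6.97, 6.60 and 6.67 in the E9.5 arrays with a difference of -1.28 ± 0.15 (SE; adjusted p = 0.00043). Fgf9 fell, with -0.54 (adjusted p = 0.0219). The receptors and the feedback genes, from Fgfr1 to Dusp6 and Spry4, did not pass. Of 36 Wnt genes, 1 rose (Wnt5a) and 2 fell, Wnt8a and the secreted antagonist Frzb (-1.19 (adjusted p = 0.00717)), and the list median was -0.14. Of 18 genes of the retinoic acid pathway, 2 fell and none rose, with a median of -0.23. Rxrg, a retinoid X receptor, gave 6.80, 6.62 and 6.42 at E8.5 against 5.21, 4.99 and 5.22 at E9.5 and had -1.47 (adjusted p = 5e-05). Aldh1a2, the enzyme that makes retinoic acid, had -0.52 (adjusted p = 0.0209). With replicate 3 alone Fgf9, Frzb and Aldh1a2 lost the call. The medians of the FGF, Wnt and retinoic acid lists were then -0.05, -0.20 and -0.31. Of 22 Notch pathway genes, 3 rose and 2 fell (median 0.04). The risers were the receptor Notch3 (0.69) and the effectors Hey1 (0.88) and Hey2 (0.84). The fallers were the effectors Hes5, with 9.76, 9.51 and 9.98 in the E8.5 arrays and 9.20, 9.08 and 8.27 in the E9.5 arrays, and Hes7 (-0.66), the clock gene of the presomitic mesoderm. From replicate 3 alone Hes5 passed (-1.48 (adjusted p = 0.00932)) and the other 4 did not.

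Of 25 tested neural progenitor genes, 4 rose and 3 fell (all genes: 3.61% higher, 1.42% lower), with a median of 0.11. The median turned below 0 with array weights (-0.08) and when replicate 3 of E8.5 (-0.03) or of E9.5 (-0.04) was left out. Sox1, an early marker of committed neural progenitors, gave 6.06, 6.08 and 5.68 at E8.5 against 7.64, 7.37 and 7.83 at E9.5. The stages did not overlap, and the difference was 1.68 ± 0.15 (SE; adjusted p = 9.66e-05), or 1.89 in replicate 3. Fabp7, the brain fatty acid binding protein, gave 5.51, 6.002 and 5.15 in the E8.5 arrays and 7.49, 7.43 and 6.73 in the E9.5 arrays, a difference of 1.66 (adjusted p = 0.00193). Sox11 rose by 0.80 (adjusted p = 0.000503), with all 5 further probe sets of the gene above 0 (0.28 to 0.96), and the zinc-finger gene Zic5 by 0.54 (adjusted p = 0.0383). Rfx4, a transcription factor of cilia and neural tube patterning, gave 6.92, 6.92 and 6.60 at E8.5 against 4.80, 5.27 and 4.97 at E9.5, a difference of -1.80 ± 0.15 (SE; adjusted p = 5.48e-05). A further probe set of Rfx4 differed by -0.12. Hes5 is given above, and Pou3f1 fell, with -0.78 (adjusted p = 0.00314). The fit on replicate 3 called Sox1, Sox11, Rfx4 and Hes5 again. Of 19 genes of neurogenesis and cell cycle exit, none rose and 2 fell. Stmn2, a tubulin-binding protein of young neurons, gave 8.84, 8.77 and 9.27 in the E8.5 arrays and 7.09, 6.43 and 7.42 in the E9.5 arrays, a difference of -1.98 ± 0.24 (SE; adjusted p = 0.000537). The proneural factor Neurog2 gave 7.99, 7.98 and 7.64 at E8.5 against 6.84, 6.999 and 6.82 at E9.5, a difference of -0.98 (adjusted p = 0.00319). The call of Neurog2 was lost with replicate 3 alone.

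Of 20 floor plate and hedgehog genes, 2 fell (all genes: 3.61% higher, 1.42% lower). Shh, the ventral morphogen of notochord and floor plate, gave 11.06, 11.12 and 10.81 in the E8.5 arrays and 10.28, 10.22 and 10.54 in the E9.5 arrays, a difference of -0.65 ± 0.13 (SE; adjusted p = 0.0114), and -0.46 (adjusted p = 0.34) in replicate 3. The guidance cue Ntn1 fell, with -0.87 (adjusted p = 0.0122), and the target genes Ptch1, Gli1 and Hhip did not pass. Of 20 dorsal and BMP-response genes, 2 rose, Pax3, the dorsal paired-box factor, with 7.80, 7.99 and 8.10 at E8.5 against 8.84, 9.05 and 8.57 at E9.5 (0.86 (adjusted p = 0.00698)), and the inhibitory Smad7 (0.69 (adjusted p = 0.0496)), whose adjusted p lay just under the threshold. Neither passed in replicate 3 alone (0.61 and 0.88).

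Of 24 tested genes of cholesterol synthesis and uptake, 9 rose and none fell (all genes: 3.61% higher, 1.42% lower), 23 had a difference above 0, and the median was 0.47. Over all 13341 genes tested, 6069 had a difference above 0, and the median was -0.02. Hmgcs1, which makes HMG-CoA, the substrate of the rate-limiting step, gave 12.10, 11.98 and 11.97 in the E8.5 arrays and 12.81, 12.92 and 12.75 in the E9.5 arrays, a difference of 0.81 ± 0.08 (SE; adjusted p = 0.000149). The other probe sets above the filter differed by 0.87, 0.80, 1.14 and 0.55. Sc5d, a sterol desaturase, gave 8.49, 8.60 and 8.502 at E8.5 against 9.37, 9.38 and 9.44 at E9.5, a difference of 0.87 ± 0.11 (SE; adjusted p = 0.000625). Cyp51, lanosterol demethylase, gave 8.45, 8.86 and 8.74 in the E8.5 arrays and 9.58, 9.53 and 9.999 in the E9.5 arrays, a difference of 1.02 ± 0.16 (SE; adjusted p = 0.00309). Sqle, squalene epoxidase, gave 11.02, 10.93 and 11.03 at E8.5 against 11.44, 11.43 and 11.45 at E9.5, a difference of 0.45 (adjusted p = 0.00487). For these 4 genes every E9.5 array lay above every E8.5 array.

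Fdft1, squalene synthase, rose by 0.86, Lss, lanosterol synthase, by 0.76, and Dhcr7, the last enzyme of the pathway, by 0.58. The sterol transporter Stard4 (0.75) and the sterol dehydrogenase Nsdhl (0.55) completed the 9. Further probe sets of Fdft1 (-0.28 and -0.16) and Lss (-0.04) did not follow, while another of each did, at 0.56 for Fdft1 and 0.66 for Lss. The differences of Fdps (0.85 (adjusted p = 0.23)), Mvd (0.50 (adjusted p = 0.12)), Msmo1 (0.47 (adjusted p = 0.37)) and Idi1 (0.42 (adjusted p = 0.18)) missed the threshold, and their E9.5 arrays spread over 1.08, 0.54, 1.26 and 0.71 units. Msmo1 gave 9.71, 9.78 and 9.80 in the E8.5 arrays and 10.10, 9.68 and 10.94 in the E9.5 arrays, so that E9.5 replicates 1 and 2 stood on either side of the E8.5 arrays and replicate 3 about 1 unit above them. The median over the list, relative to the E8.5 mean of each gene, was 0.45, 0.39 and 0.63 in the 3 E9.5 arrays. With replicate 3 as the only E9.5 array 7 genes rose, Msmo1 and Idi1 among them, and none fell. With the 3' to 5' difference as a covariate 15 passed, with a median of 0.58.

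Promoter windows of 3 of the risers are shown for the sites that sterol-regulated promoters are known for, which bind NF-Y and the sterol regulatory element binding proteins. The motifs searched were CCAAT and TCACCCCA, on both strands, and matches are in capitals. The windows are the 250 bases before the annotated start in GRCm38.p6, from RefSeq, with Hmgcs1 at chr13:119690101-119690350 (plus strand), Cyp51 at chr5:4104698-4104947 (minus strand) and Sc5d at chr9:42264301-42264550 (minus strand).
Hmgcs1: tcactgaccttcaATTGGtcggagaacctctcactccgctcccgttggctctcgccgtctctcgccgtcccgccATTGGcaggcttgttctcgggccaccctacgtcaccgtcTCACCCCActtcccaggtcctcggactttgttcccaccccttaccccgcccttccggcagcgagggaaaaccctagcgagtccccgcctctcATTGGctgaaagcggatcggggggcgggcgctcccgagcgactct
Cyp51: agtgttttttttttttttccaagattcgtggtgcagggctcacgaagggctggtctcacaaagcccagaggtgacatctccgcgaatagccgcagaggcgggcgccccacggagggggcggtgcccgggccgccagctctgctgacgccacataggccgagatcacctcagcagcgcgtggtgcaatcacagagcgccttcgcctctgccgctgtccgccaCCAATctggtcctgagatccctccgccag
Sc5d: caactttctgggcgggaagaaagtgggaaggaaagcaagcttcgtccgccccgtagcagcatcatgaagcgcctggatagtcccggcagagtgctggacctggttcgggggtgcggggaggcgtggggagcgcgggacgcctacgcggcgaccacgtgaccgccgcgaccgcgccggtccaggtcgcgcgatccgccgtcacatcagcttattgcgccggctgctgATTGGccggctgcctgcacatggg
CCAAT occurs 3 times in the Hmgcs1 window and once in each of the other two, and TCACCCCA once, in Hmgcs1. Of the 27 listed genes, 24 of which were tested, 18 had a window in the RefSeq table. Of these 18, 17 held CCAAT in at least 1 window, against 33.9% of all 32851 windows and 28.4% of the 5896 windows with 20 or more CpG. TCACCCCA occurred in windows of 2 of the 18, Hmgcs1 and Srebf2, and in 1.34% of all windows. Matches are a description of the letters, genes with several windows had more than 1 chance of a match, and the list includes genes that did not rise.

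Of 18 glycolysis genes 17 had a difference below 0, with a median of -0.34, yet only Pfkp and the glucose transporter Slc2a1 passed. Over all 13341 genes tested, 6069 had a difference above 0, and 1.42% passed as lower. The list median relative to E8.5 was -0.39 and -0.67 in E9.5 replicates 1 and 2 and -0.04 in replicate 3. With the 3' to 5' difference as a covariate it was -0.06. Pkm, pyruvate kinase, shows the pattern, with 13.31, 13.27 and 13.37 at E8.5 against 12.88, 12.28 and 13.29 at E9.5, and Tpi1 gave 13.28, 13.51 and 13.40 in the E8.5 arrays and 12.76, 12.46 and 13.30 in the E9.5 arrays. The part of RNA integrity in this difference was not tested further. Slc2a1 gave 13.03, 12.88 and 13.07 at E8.5 against 12.25, 12.22 and 12.32 at E9.5, a difference of -0.73 ± 0.08 (SE; adjusted p = 0.000316) that was -0.68 in replicate 3. Its other 2 probe sets differed by -1.20 and -2.12. Pfkp gave 7.85, 8.01 and 8.38 in the E8.5 arrays and 6.13, 5.95 and 6.48 in the E9.5 arrays, and -1.60 (adjusted p = 0.0343) in replicate 3.

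Of 22 hypoxia-response genes 5 fell and 1 rose, with a median of -0.16 (-0.18 in replicate 3), against 1.42% lower and 3.61% higher over all genes. Higd1a, a mitochondrial protein induced in hypoxia, gave 11.88, 12.01 and 11.92 at E8.5 against 10.91, 10.84 and 11.04 at E9.5, a difference of -1.01 ± 0.12 (SE; adjusted p = 0.000423). P4ha2, a collagen prolyl hydroxylase, gave 7.92, 7.94 and 8.39 in the E8.5 arrays and 6.99, 6.52 and 6.89 in the E9.5 arrays (-1.28 (adjusted p = 0.0033)), and Ndrg1 gave 7.39, 7.21 and 7.97 at E8.5 against 6.41, 6.14 and 6.32 at E9.5 (-1.23 (adjusted p = 0.00241)). Further probe sets of Ndrg1 above the filter differed by -1.12, -0.26 and -0.15. Bnip3, a mitophagy receptor, had -0.55 (adjusted p = 0.0482), and Slc2a1 is counted here too. Bhlhe40, a transcriptional repressor, rose, with 5.39, 5.35 and 5.40 in the E8.5 arrays and 6.23, 5.98 and 6.19 in the E9.5 arrays (0.76 (adjusted p = 0.000966)). The canonical targets Vegfa (0.21 (adjusted p = 0.58)), Pdk1 (0.11 (adjusted p = 0.57)), Egln3 (0.17 (adjusted p = 0.70)) and Kdm3a (-0.01 (adjusted p = 0.97)) and the factor Hif1a (0.16 (adjusted p = 0.35)) did not pass. On replicate 3 alone Slc2a1 and Higd1a remained past the threshold among the fallers, and Bhlhe40 rose by 0.81. Of 33 genes of oxidative phosphorylation 1 rose, the ATP synthase subunit Atp5c1 (0.41 (adjusted p = 0.00465)), and the median was -0.06. With replicate 3 alone Atp5c1 lost the call, and the median was 0.12.

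**Figure D3:**
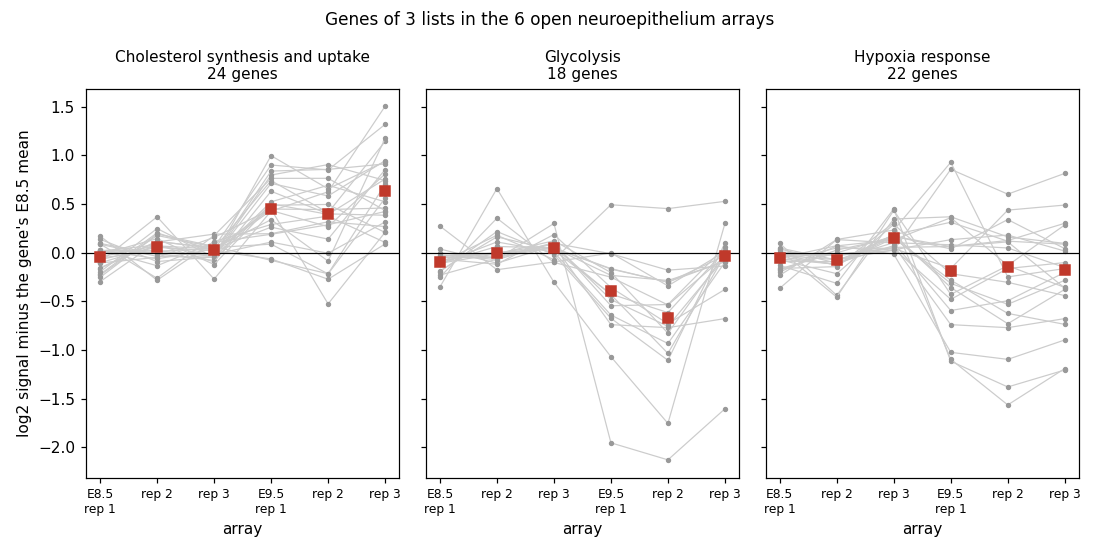
Log2 signal minus the gene's mean over the 3 E8.5 arrays (vertical axis) in each of the 6 arrays (horizontal axis) for the tested genes of 3 lists; grey lines join the values of a gene and red squares are the median over the genes. The cholesterol medians lie at 0.45, 0.39 and 0.63 in the E9.5 arrays, and the glycolysis medians at -0.39, -0.67 and -0.04.

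Markers of other cell types that the dissected tissue could hold were read from the same arrays. Of 8 tested genes of the blood list 4 rose (all genes: 3.61% higher), the embryonic globins Hbb-y, Hbb-bh1 and Hba-x and the transcriptional cofactor Lmo2. With replicate 3 alone the list median was 0.58, against 0.59 with all replicates, and Hbb-bh1 and Lmo2 lost the call. Hbb-y, made by primitive red cells, gave 5.01, 8.20 and 7.67 at E8.5 against 12.33, 12.34 and 11.76 at E9.5, a difference of 5.18 ± 0.66 (SE; adjusted p = 0.000799). Hbb-bh1 gave 5.72, 8.31 and 7.54 in the E8.5 arrays and 10.77, 10.36 and 10.14 in the E9.5 arrays, and Hba-x gave 5.02, 5.99 and 5.67 at E8.5 against 7.94, 7.78 and 8.04 at E9.5. The E8.5 arrays spread over more than 2 units for Hbb-y and Hbb-bh1, with replicate 1 the lowest for all 3 globins. Lmo2 gave 7.48, 7.90 and 8.18 in the E8.5 arrays and 9.02, 9.05 and 8.88 in the E9.5 arrays, 1.13 (adjusted p = 0.00313). The summed signal of the 16 measured genes of the list ranged from 9.26 to 10.23 at E8.5 and from 12.46 to 12.97 at E9.5 on the log2 scale. Klf1 (0.01 (adjusted p = 0.97)), Epor (0.05 (adjusted p = 0.87)), Gata2 (-0.01 (adjusted p = 0.99)) and Spi1 (-0.07 (adjusted p = 0.85)) did not pass. Gata1, Tal1, Nfe2, Alas2, Ptprc, Lyl1 and Hba-a1 were under the filter, as was the red cell anion exchanger Slc4a1, whose 3 E8.5 arrays lay between 3.59 and 3.66 and whose 3 E9.5 arrays lay between 4.67 and 5.37. The part of blood cells in other differences was not tested. Of 12 tested endothelial genes none passed in the limma fit (5 at an unadjusted p under 0.05), with a summed signal of 11.34 to 11.47 at E8.5 and 10.86 to 11.45 at E9.5, and the defining Pecam1, Cdh5, Tek and Emcn were under the filter.

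Of 20 notochord and node genes 4 fell and none rose, with a median of -0.32 (-0.24 in replicate 3), against 1.42% lower and 3.61% higher over all genes. They were Shh, Ntn1, the intermediate filament gene Krt8, with 9.22, 9.67 and 9.08 at E8.5 against 8.25, 8.08 and 8.57 at E9.5 (-1.02 (adjusted p = 0.0294)), and the caveolar protein Cav1, with 6.01, 5.76 and 5.79 in the E8.5 arrays and 5.13, 4.81 and 4.91 in the E9.5 arrays (-0.90 (adjusted p = 0.000715)). The summed signal of the list was 12.23 to 12.50 at E8.5 and 12.07 to 12.14 at E9.5, and the part that a differing amount of notochord takes in the fall of Shh was not tested. Of 16 presomitic mesoderm genes 1 rose, Tcf15 (0.66 (adjusted p = 0.034)), and 3 fell, Hes7 (-0.66), Aldh1a2 (-0.52) and Cited1 (-1.27 (adjusted p = 0.0277)). The defining genes Tbx6 and Msgn1 did not pass. Of 12 somite and lateral mesoderm genes 2 rose, Tcf15 and the receptor Pdgfra, with 8.77, 8.78 and 9.18 at E8.5 against 9.99, 10.24 and 9.86 at E9.5 (1.12 (adjusted p = 0.00293)), and 15 measured genes of the list lay under the filter. Its summed signal was 9.99 to 10.20 at E8.5 and 10.55 to 10.81 at E9.5. Of 14 neural crest genes 2 rose, Pax3 and Ets1 (1.09 (adjusted p = 0.0277)), and 1 fell, Ngfr (-0.76 (adjusted p = 0.0219)), and Sox10 and Foxd3 did not pass. With replicate 3 alone each of the genes called in these lists lost the call, Cav1 excepted. The medians there were -0.03 (presomitic mesoderm), -0.24 (somite and lateral mesoderm) and -0.14 (neural crest), against -0.13, -0.08 and -0.08 with all replicates.

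Of 26 genes of surface ectoderm and epithelium 3 fell and none rose, Esrp1, Krt8 and the membrane protease Prss8 (-0.68 (adjusted p = 0.0344)), with a median of -0.22 (all genes: 1.42% lower, 3.61% higher). With replicate 3 alone the median was -0.33, and Krt8 and Prss8 lost the call. The summed signal of the list was 12.35 to 12.45 at E8.5 and 12.09 to 12.16 at E9.5. Grhl2 and Grhl3, transcription factors needed for closure of the caudal neural tube, stood at 6.33, 6.09 and 6.43 in the E8.5 arrays and 6.33, 6.56 and 5.94 in the E9.5 arrays and at 7.002, 7.17 and 6.95 at E8.5 against 7.05, 6.70 and 7.36 at E9.5. The stages overlapped for both. Of 14 genes of gut endoderm and yolk sac 2 fell, Shh and Apoe, which gave 7.81, 8.08 and 7.76 in the E8.5 arrays and 5.94, 6.18 and 7.29 in the E9.5 arrays (-1.42 (adjusted p = 0.0175)). Replicate 3 of Apoe lay closer to E8.5 than the other 2, and with replicate 3 alone the calls of Shh and Apoe were lost.

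Of 29 extracellular matrix and integrin genes 4 rose and 1 fell (all genes: 3.61% higher, 1.42% lower). Has2, hyaluronan synthase, gave 7.47, 7.59 and 8.01 at E8.5 against 9.53, 9.60 and 9.29 at E9.5, a difference of 1.78 ± 0.17 (SE; adjusted p = 0.000103) that was 1.60 in replicate 3. Sparc rose by 0.93, Lama1, a laminin chain, by 0.77, and Fn1, fibronectin, by 0.51, and Col4a1, a basement membrane collagen, fell to a difference of -0.73. In replicate 3 alone only Has2 of the 5 passed, and a further probe set of Sparc had -0.09. Of 27 adhesion and junction genes Cdh11, a mesenchymal cadherin, rose, with 8.21, 8.46 and 8.57 in the E8.5 arrays and 9.43, 9.68 and 9.56 in the E9.5 arrays (1.15 (adjusted p = 0.00172)), and F11r, the junctional adhesion molecule, fell (-1.12 (adjusted p = 0.0248); -0.54 in replicate 3). Of 38 genes of planar cell polarity and neural tube closure 2 rose, Wnt5a and the membrane-cytoskeleton protein Marcks (0.63 (adjusted p = 0.0297)), and 1 fell, Vangl1 (-0.70 (adjusted p = 0.00558)). Of 17 ephrins and Eph receptors Epha2 rose (0.91 (adjusted p = 0.0145)) and Ephb1 fell (-0.50 (adjusted p = 0.0466)). Of 29 guidance genes 2 rose, the netrin receptor Unc5b, with 8.15, 8.30 and 8.52 at E8.5 against 9.80, 9.67 and 9.40 at E9.5 (1.30 (adjusted p = 0.00121)), and the semaphorin coreceptor Nrp2 (0.55 (adjusted p = 0.0269)), and Ntn1 fell. With replicate 3 alone Cdh11, F11r, Marcks, Vangl1, Epha2, Ephb1, Unc5b, Nrp2 and Ntn1 lost the call, and Wnt5a kept it. The medians there were -0.08 (adhesion), 0.02 (polarity and closure), 0.05 (ephrins and Eph receptors) and -0.04 (guidance). With all replicates they were 0.03, 0.05, -0.16 and -0.06.

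Of 31 DNA replication genes, 30 ribosomal protein genes and 20 folate and one-carbon genes none passed in the limma fit, with medians of -0.05, -0.08 and 0.02, and 3, 1 and 3 had an unadjusted p under 0.05. Of 26 genes listed under mitosis 1 fell, Ccnd2, which is a G1 cyclin and not a gene of mitosis itself. No other member of that list passed. Ccnd2 gave 12.31, 12.30 and 12.32 in the E8.5 arrays and 11.64, 11.51 and 11.48 in the E9.5 arrays, a difference of -0.77 ± 0.08 (SE; adjusted p = 0.000149). Of 17 genes of DNA methylation and chromatin 2 rose and 1 fell (all genes: 3.61% and 1.42%). Jarid2, a cofactor of Polycomb repressive complex 2, gave 10.26, 10.23 and 10.32 at E8.5 against 11.41, 11.48 and 11.17 at E9.5, a difference of 1.08 ± 0.13 (SE; adjusted p = 0.000635). Kdm6b, a demethylase of the Polycomb mark, rose by 0.79 (adjusted p = 0.00416), and the Polycomb subunit Cbx7 had -0.65 (adjusted p = 0.019). In replicate 3 alone none of the 3 passed, with 0.90 (adjusted p = 0.0545) for Jarid2. Of 21 imprinted growth genes 1 rose, Plagl1 (0.33), and 3 fell, Phlda2 (-0.77), Ascl2 (-0.46) and the noncoding Rian (-0.58), and Igf2 had -0.32 (adjusted p = 0.62). Plagl1, Phlda2, Ascl2 and Rian lost the call with replicate 3 alone. Of 22 p53-target and apoptosis genes Pmaip1, which encodes Noxa, rose (0.74 (adjusted p = 0.00769)), and it lost the call with replicate 3 alone. Of 23 immediate early and dissociation genes 3 rose, Jun (0.90 (adjusted p = 0.00247)), Ccn2 (1.14 (adjusted p = 0.0158)) and Socs3 (1.22 (adjusted p = 0.00715)), while Fos, Egr1, Atf3 and Hspa1b did not pass. None of these 3 passed in replicate 3 alone.

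**Figure D4:**
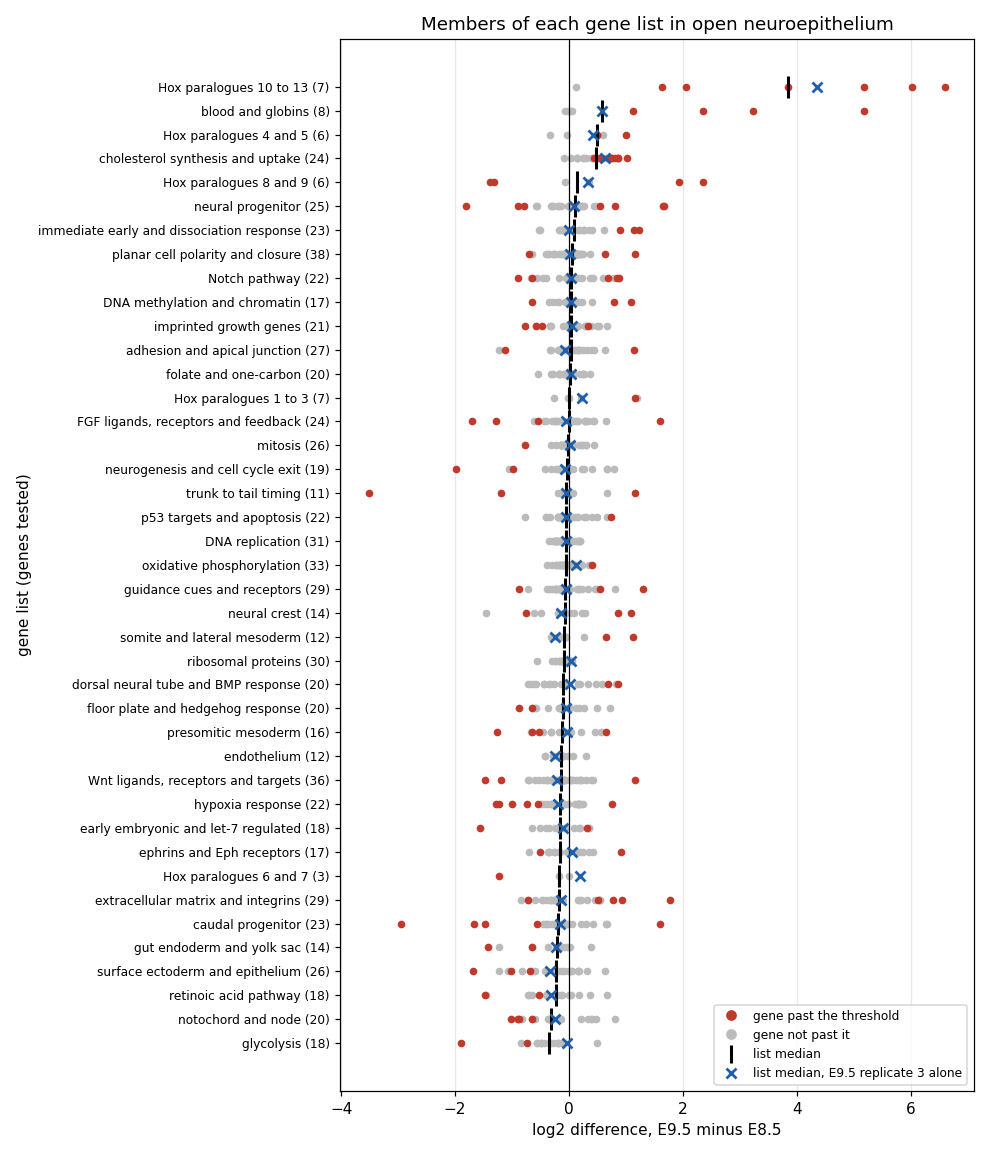
Log2 difference between E9.5 and E8.5 in open neuroepithelium (horizontal axis) of each tested member of 41 gene lists (vertical axis; number tested in brackets); red points passed an adjusted p under 0.05, grey points did not, bars are list medians and crosses the medians with E9.5 replicate 3 alone. The Hox paralogues 10 to 13 stand at a median of 3.85, cholesterol synthesis and uptake at 0.47 and glycolysis at -0.34, where the cross lies at -0.04.

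The stage difference in open tissue was set against that in closed neural tube in the same fit, as an interaction. It passed for 167 genes, or 1.25% of those tested, 127 with the open difference above the closed one (0.952%) and 40 with it below (0.3%). Among the 670 genes that differed in open tissue, 107 also passed the interaction. In closed tissue 128 genes were higher (0.959%) and 195 lower (1.46%), and 62 risers and 50 fallers of the open tissue passed there in the same direction, whereas 9 passed in the opposite one. The closed E8.5 group has 2 arrays, so its mean is the least precise of the 4.

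Of the 6 posterior Hox genes that rose in open tissue, 2 passed the interaction, Hoxa11 and Hoxd10. Hoxc10 rose in both tissues, with 6.23 in closed tube and an interaction of 0.37 ± 0.56 (SE; adjusted p = 0.88). Hoxa11 differed by 0.53 in closed tube, an interaction of 3.32 ± 0.34 (SE; adjusted p = 0.000844), and Hoxd10 by 1.87, an interaction of 4.16 ± 0.76 (SE; adjusted p = 0.0239). The interactions of Hoxa10 (1.71 ± 0.48 (SE; adjusted p = 0.17)), Hoxd11 (1.89 ± 0.44 (SE; adjusted p = 0.079)) and Hoxd13 (1.57 ± 0.63 (SE; adjusted p = 0.42)) did not pass. In groups 8 and 9 the direction turned, with an open minus closed value below 0 for all 6 genes tested. Hoxa9 differed by 2.14 in closed tube and -0.07 in open (-2.21 ± 0.18 (SE; adjusted p = 0.000183)). Hoxc8 rose by 0.83 in closed tube and fell in open (-2.21 ± 0.23 (SE; adjusted p = 0.000941)), and Hoxb9 followed with -1.61 ± 0.20 (SE; adjusted p = 0.00224). The median of the 6 genes was 2.21 in closed tube and 0.14 in open tissue.

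Nr6a1 fell in closed tube as well, with -0.97, but less than in open tissue (-2.53 ± 0.29 (SE; adjusted p = 0.00138)). For Cdx1 the stages differed by -2.80 in closed tube, with an interaction of -0.15 ± 0.67 (SE; adjusted p = 0.97). Shh rose by 0.98 in closed tube where it fell in open tissue (-1.63 ± 0.19 (SE; adjusted p = 0.00168)). Sox1 differed by -0.25 in closed tube, an interaction of 1.92 ± 0.23 (SE; adjusted p = 0.00191), and Wnt5a by 1.53, an interaction of -0.37 ± 0.21 (SE; adjusted p = 0.64). Of the 24 cholesterol genes 8 passed the interaction, all with the open difference above the closed one, and the closed median was -0.20. Hmgcs1 had -0.11 in closed tube (0.93 ± 0.12 (SE; adjusted p = 0.00281)), and Stard4 had -0.95 (1.69 ± 0.24 (SE; adjusted p = 0.00458)). Hbb-y differed by 2.81 in closed tube, and its interaction of 2.37 ± 0.99 (SE; adjusted p = 0.46) did not pass.

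**Figure D5:**
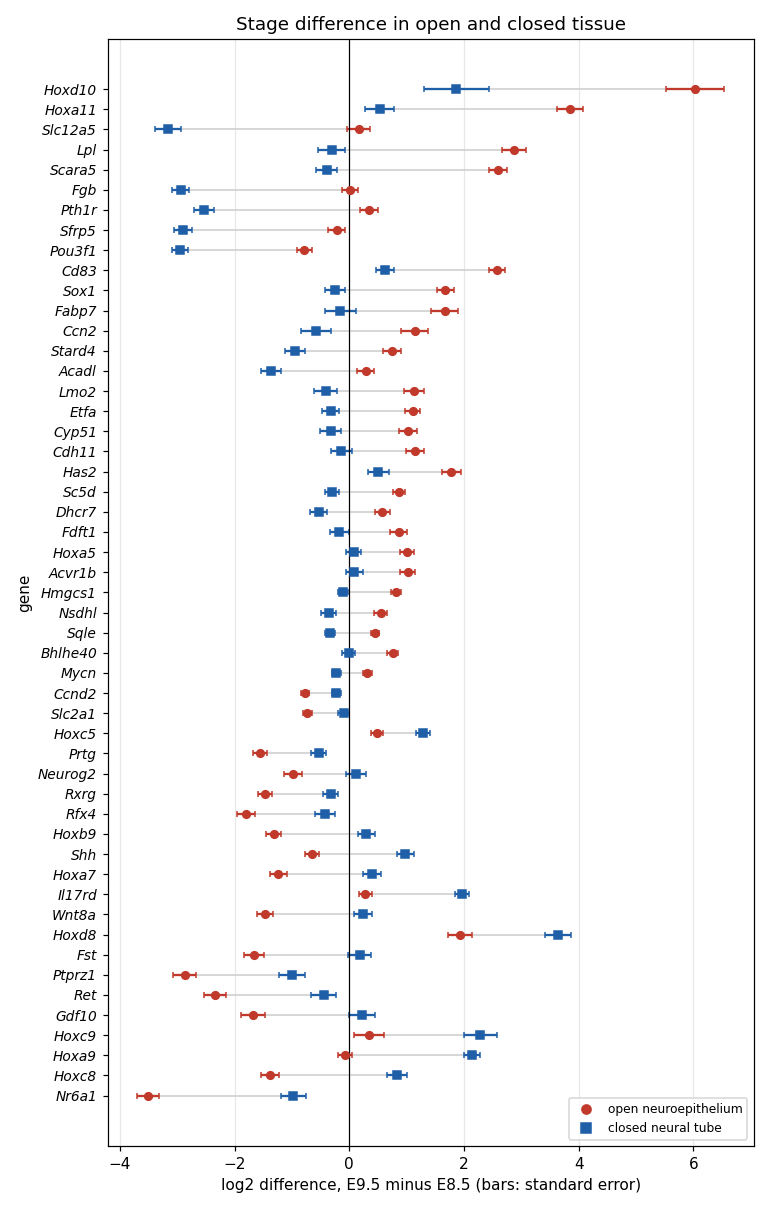
Log2 difference between E9.5 and E8.5 (horizontal axis) in open neuroepithelium (red circles) and in closed neural tube (blue squares) for the 51 named genes whose 2 differences are themselves different at an adjusted p under 0.05 (vertical axis); bars are standard errors. Hoxd10 and Hoxa11 lie far to the right in open tissue, whereas Fgb, Sfrp5, Pth1r and Slc12a5 lie near 0 there and between -3.15 and -2.54 in closed tube.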

How the data were processed

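Expression was measured on mouse arrays in 11 samples, 6 of them of open neuroepithelium. The authors deposited 1 table of log2 values for 45101 probe sets (range 2.37 to 14.72, no missing value); per the submitters' processing notes MAS5 was used, with its role, the normalisation and the software version not given in the sources used here. Its values were used as deposited. Of the probe sets, 64 are controls, 34945 carry 1 gene symbol in the platform annotation, 932 several and 9160 none, and genes were named from the first kind. The number of arrays limits the precision.

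A model with 4 group means was fitted to the 11 arrays with limma 3.58.1 (R 4.3.3; lmFit and eBayes with an intensity trend; 7 residual degrees of freedom). P-values were adjusted over all 13341 genes by Benjamini-Hochberg, with a threshold of 0.05, and errors are the standard errors of that fit. Replicate 3 was checked in a fit without open E9.5 replicates 1 and 2. The code was tested on simulated data.

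Text names the 12 largest rises and falls, up to 4 genes of smallest p per list and direction, 30 anchor genes (25 tested) and the 6 strongest interactions each way. A largest rise or fall had to have arrays that did not overlap between stages and the same sign in replicate 3. All 481 higher and 189 lower genes met these conditions. Anchors not given above are Ldha (-0.17 (adjusted p = 0.37)), Dnmt3b (-0.35 (adjusted p = 0.085)), Nodal (-0.64 (adjusted p = 0.059)) and Cdkn1a (0.68 (adjusted p = 0.053)). They missed the threshold in the limma fit. Further members of lists were named after their values were seen. The members and lists (41 lists, 734 tested genes, some in several) were chosen with earlier results of these data known. Of 128 named genes past the threshold, 68 have another probe set above the filter, and in 10 one of these has the opposite sign. No set test was made.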

Additional observations from a re-analysis of the deposited data

Results flagged for a closer look

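The stage difference in open tissue and that in closed neural tube were themselves different for 51 of 176 named genes. The test was the interaction of the limma fit (adjusted p under 0.05), which 167 of all 13341 genes tested passed, or 1.25%. The named genes include the strongest interactions each way, and many were chosen for their open difference, which enters the interaction. The count of 51 is therefore no more than a description. Among the genes above, the open difference exceeded the closed one for Hoxd10 by 4.16 log2 units, for Hoxa11 by 3.32, for Lpl by 3.18, for Scara5 by 2.98, for Cd83 by 1.94 and for Hmgcs1 by 0.93. It lay below the closed one for Nr6a1 (-2.53), Ptprz1 (-1.87), Ret (-1.90), Rfx4 (-1.38), Gdf10 (-1.90), Hoxb9 (-1.61), Hoxc9 (-1.94), Hoxa9 (-2.21), Hoxc8 (-2.21) and Shh (-1.63). Fgb, the fibrinogen beta chain (2.95), Sfrp5, a secreted Wnt antagonist (2.68), Pth1r, the parathyroid hormone receptor (2.88), and Slc12a5, a neuronal chloride transporter (3.32), fell in closed tube, with differences of -2.94, -2.90, -2.54 and -3.15, and did not pass in open tissue. Pou3f1 (2.16) fell in both, with -2.94 in closed tube and -0.78 in open. Il17rd, an FGF feedback inhibitor (-1.69), rose by 1.97 in closed tube, against 0.28 (adjusted p = 0.20) in open. The open difference also exceeded the closed one for Sox1 (1.92), Fabp7 (1.82), Mycn (0.54), Hoxa5 (0.93), Lmo2 (1.54), Bhlhe40 (0.77), Has2 (1.27), Ccn2 (1.72) and Cdh11 (1.29), for the sterol genes Sc5d (1.17), Cyp51 (1.34), Sqle (0.78), Dhcr7 (1.11), Stard4 (1.69), Nsdhl (0.91) and Fdft1 (1.04), and for Etfa (1.43), Acadl (1.65) and Acvr1b (0.93). It lay below the closed one for Hoxa7 (-1.63), Hoxd8 (-1.71), Hoxc5 (-0.80), Prtg (-1.03), Wnt8a (-1.70), Fst (-1.84), Rxrg (-1.15), Neurog2 (-1.10), Slc2a1 (-0.63) and Ccnd2 (-0.55). Differences in closed tube rest on 2 arrays at E8.5.

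Outside the genes of the report, 3812 probe sets with no symbol or several symbols lay above the filter. In the same fit 30 of them passed the threshold (0.787%), 28 higher and 2 lower at E9.5. They were not named.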

How the results depend on the processing

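None of the 128 named genes past the threshold changed sign under any alternative, while 20 of the 48 not past it did, such as Cdx2 (-0.24, up to 0.19), Igf2 (-0.32, up to 0.29) and Lin28a (0.07, down to -0.09). Of the former, 49 passed it in all alternatives other than the limit of 1 log2 unit. The count of 670 genes became 4296 (2179 higher, 2117 lower) with array weights, which gave open E9.5 replicate 1 a weight of 6.28 and replicate 3, the array with the better RNA, 0.31. It became 219 (154 and 65) with a limit of 1 log2 unit and 182 (134 and 48) without open E9.5 replicates 1 and 2. With the 3' to 5' difference as a covariate 358 genes were lower and 1001 passed in all, 529 of them among the 670. Leaving out 1 array at a time gave 367 to 1262 genes, 256 to 819 higher and 111 to 443 lower. Without open E9.5 replicate 3 the count was 1262, without open E8.5 replicates 1 and 3 it was 367 and 422, and without open E9.5 replicates 1 and 2, each in turn, 436 and 414. The interaction count of 167 became 297 with the covariate, 72 without open E9.5 replicates 1 and 2, and 84 to 239 leaving out 1 array at a time. The count of 182 for replicate 3 alone became 409 with array weights, 422 with the covariate, and 93 to 316 leaving out 1 array at a time.

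Quantile normalisation gave 641 genes (393 higher, 248 lower), and centring each array on its median 588 (366 and 222), so that 61.3% and 62.2% of the genes past the threshold were higher, against 71.8% in the values as deposited. The replicate numbers did not pair the samples (correlations of deviations of 0.30, -0.53 and -0.32), and a replicate block gave 704 genes, 129 interactions and 126 for replicate 3 alone. Of the 128 named genes, leaving out 1 open E8.5 array ended the call for 33 to 39, and leaving out open E9.5 replicate 1, 2 or 3 for 35, 30 and 8. With replicate 3 as the sole E9.5 array 72 lost it. Leaving out 1 closed array ended 3 to 9. The list medians of the Hox genes of groups 6 and 7, the dorsal and BMP genes and the ephrins and Eph receptors, all below 0, became 0.26, 0.12 and 0.03 with the covariate and 0.20, 0.02 and 0.05 without open E9.5 replicates 1 and 2. Named genes with a p near the threshold were the ones lost most often, Smad7, Hoxb5, Plagl1 and Ephb1 among them.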

Other observations

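Chosen after their values were seen, and so given with no support from their counts, 3 further gene groups stood out among the genes that differed. Over all genes 3.61% were higher and 1.42% lower, and the median was -0.02. Of 9 neurofilament and stathmin genes, cytoskeletal genes of young neurons, 5 fell and none rose, with a median of -0.89 (-0.85 in replicate 3 alone and -1.12 in closed tube, where 6 fell). Nefl, the light chain, gave 8.64, 8.49 and 8.87 in the E8.5 arrays and 7.25, 7.05 and 7.01 in the E9.5 arrays, a difference of -1.57 ± 0.16 (SE; adjusted p = 0.000165). Nefh, the heavy chain, gave 5.20, 4.95 and 5.31 at E8.5 against 4.07, 3.86 and 3.98 at E9.5, with values at E9.5 under the filter, and Nefm and Stmn3 fell to differences of -0.89 and -0.89. Nefm and Stmn3 lost the call with replicate 3 alone. The interaction of Nefl with the tissue was 0.20 ± 0.24 (SE; adjusted p = 0.85).

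Of 18 genes of mitochondrial fatty acid oxidation 4 rose and none fell (all genes: 3.61% higher, 1.42% lower), with a median of 0.16. Acaa2, a thiolase, gave 7.74, 7.94 and 7.97 in the E8.5 arrays and 8.89, 9.09 and 9.06 in the E9.5 arrays, and its other 2 probe sets differed by 0.91 and 0.89. Hadhb, of the trifunctional protein, rose by 1.12 (adjusted p = 0.00118), Etfa, of the electron transfer flavoprotein, by 1.10 (adjusted p = 0.000442) and the isomerase Eci1 by 1.41 (adjusted p = 0.017). In replicate 3 alone 3 of the 4 passed, and the other 14 genes, such as Acadl (0.29 (adjusted p = 0.36)), did not pass with all replicates.

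Of 17 tested genes of TGF-beta signalling 8 rose and 1 fell (all genes: 3.61% higher, 1.42% lower), with a median of 0.34 (0.43 in replicate 3 alone). The ligand Tgfb2 gave 5.57, 5.83 and 5.57 at E8.5 against 6.96, 6.99 and 6.54 at E9.5, a difference of 1.17 (adjusted p = 0.00354), and the type I receptor Acvr1b gave 8.56, 8.71 and 8.76 in the E8.5 arrays and 9.67, 9.70 and 9.71 in the E9.5 arrays, with a further probe set at -0.36. Among the pathway's inhibitors, Skil rose by 0.83 (adjusted p = 0.000337) and Pmepa1, with 4.25, 4.30 and 4.10 at E8.5 against 6.49, 6.65 and 5.17 at E9.5, by 1.89 (adjusted p = 0.00364). Replicate 3 of Pmepa1 lay over 1 unit under the other two, and in it alone the difference was 0.96 (adjusted p = 0.0454). The target Tgfbi rose by 1.10 (adjusted p = 0.00228), and the coreceptor Tgfbr3 fell to a difference of -0.66 (adjusted p = 0.0218). Tgfb2, Tgfbi and Tgfbr3 lost the call with replicate 3 alone.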
